A study of Mus musculus with 15 samples.

Results

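Promoter-flanking peaks are the stretches of open chromatin that lie 1 to 3 kb from an annotated gene start, beside the core promoter. They were taken as the peaks that the authors' annotation placed in the classes 1-2 kb or 2-3 kb of a promoter, in each of 4 deposited tables of ATAC-seq comparisons, with repeated rows of 1 position counted once. Over the 4 tables they made up 443 distinct regions of 13858, against 7910 core promoter regions (within 1 kb of a start) and 3315 distal intergenic regions. They carried the names of 438 genes, 103 of them predicted genes that are counted here and not named.

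ATAC-seq marks open chromatin with the Tn5 transposase. Here it was run on pancreatic islets of 15 male mice aged 3 months, which all carried Arid1aFl/Fl alleles and MIP-rtTA, an insulin promoter that drives a doxycycline-dependent activator. The Arid1a βKO mice carried TRE-Cre as well, and the control mice did not. All mice drank 1 g/L doxycycline for 2 weeks. Partial pancreatectomy (PPx, removal of part of the pancreas) was done 1 week after doxycycline was withdrawn. The groups were βKO islets 6 days after PPx (n = 4), control islets 6 days after PPx (n = 4), βKO islets before PPx (n = 3) and control islets before PPx (n = 4). Cre acts in cells with an active insulin promoter, while the islets held other cell types too, and in such bulk samples a change in the share of a cell type cannot be told apart from a change in accessibility per cell.

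Arid1a belongs to the SWI/SNF (BAF) complex, which uses ATP to move nucleosomes at promoters and enhancers, and helps it to contact DNA. Regions next to core promoters often hold second gene starts, short-range enhancers and the edges of nucleosome-free regions, and they sit between promoters and distal enhancers in their makeup. In β cells, accessible chromatin near a gene marks where islet transcription factors and signal-dependent factors such as the FOS and JUN proteins can bind.

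Some of these peaks cover a gene start of the RefSeq annotation, although the authors' annotation placed them 1 to 3 kb from the start it used. A window of 300 bases around a RefSeq start (250 before, 50 after) lay whole within a flanking peak in 23 cases. Some of these windows overlap in the same peak, as at Smim15, where windows of a predicted gene on the other strand overlap its own. The windows shown belong to the 3 flanking peaks called in βKO against control after PPx that lie within 1000 bp of a RefSeq start, with the start of Kcnq1ot1, a long non-coding RNA that lies inside the flanking peak named for Kcnq1, added as a contrast that was not called. They come from RefSeq on GRCm38.p6 and are written 5′ to 3′ on the gene's strand. Capitals mark each CCAAT and each GC box, whose letters are GGGCGG, on either strand.
Cpeb4: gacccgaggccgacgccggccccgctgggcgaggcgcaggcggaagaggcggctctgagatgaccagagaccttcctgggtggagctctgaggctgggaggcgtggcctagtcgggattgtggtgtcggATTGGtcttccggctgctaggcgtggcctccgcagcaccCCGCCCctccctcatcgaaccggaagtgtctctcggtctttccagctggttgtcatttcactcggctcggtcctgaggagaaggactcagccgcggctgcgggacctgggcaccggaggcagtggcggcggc
Smim15: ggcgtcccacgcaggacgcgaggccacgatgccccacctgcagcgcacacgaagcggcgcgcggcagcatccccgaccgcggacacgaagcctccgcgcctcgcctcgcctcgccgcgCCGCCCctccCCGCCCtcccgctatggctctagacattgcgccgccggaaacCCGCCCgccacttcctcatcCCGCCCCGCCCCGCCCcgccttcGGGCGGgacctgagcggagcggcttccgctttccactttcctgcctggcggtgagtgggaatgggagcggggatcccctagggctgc
Zfp995: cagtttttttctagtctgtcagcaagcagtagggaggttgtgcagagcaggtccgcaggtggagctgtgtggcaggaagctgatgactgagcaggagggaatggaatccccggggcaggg
Kcnq1ot1: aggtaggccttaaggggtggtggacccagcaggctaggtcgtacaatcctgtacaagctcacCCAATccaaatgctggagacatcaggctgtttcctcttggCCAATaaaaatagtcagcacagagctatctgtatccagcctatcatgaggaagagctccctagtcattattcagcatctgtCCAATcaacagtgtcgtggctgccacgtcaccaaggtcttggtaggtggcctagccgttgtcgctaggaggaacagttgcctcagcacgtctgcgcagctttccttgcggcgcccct
The Cpeb4 window is chr11:31870690-31870989 on the + strand, and that of Smim15 is chr13:108044224-108044523 on the + strand. The Zfp995 stretch is the 120 bases of its window that the peak covers, chr17:21909877-21909996 on the - strand. The Kcnq1ot1 window is chr7:143296498-143296797 on the - strand. Cpeb4 holds 1 CCAAT and 1 GC box with 68.3% GC and 27 CpG, and Smim15 holds 7 GC boxes and no CCAAT with 74.3% GC and 41 CpG. In the covered stretch of Zfp995 neither motif was found, at 57.5% GC and 2 CpG; only that part of its window was searched.

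Over the 23 windows inside flanking peaks the median GC content was 62.3% with a median of 18 CpG. As some of the 23 overlap, these medians and the shares below count some peaks more than once. The 5874 windows inside core promoter peaks had a median of 62.7% and 23 CpG, and all 32817 windows had 52.7% and 7 CpG. Both strands were searched, with overlapping matches counted. GGGCGG was present in 47.8% of windows inside flanking peaks, in 73.4% of those inside core peaks and in 35.6% of all. CCAAT stood in 39.1%, 47.1% and 37.4% of the same 3 sets, and TATAAA in 4.35%, 5.19% and 13.6%. None of the 23 windows held the cAMP response element TGACGTCA or the AP-1 site TGANTCA, which stood in 1.79% and 7.81% of all windows and in 4.2% and 3.58% of those inside core peaks. These are descriptions of letters in a window and say nothing of binding.

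The tables listed 13111 peaks for βKO against control after PPx, 7826 for βKO against control before PPx, 12767 for βKO after against before PPx and 8070 for control after against before PPx. Flanking peaks numbered 400, 182, 377 and 202 in the same order. Levels are the authors' log2 concentration of a group, and a change is the first group minus the second, so that 1 unit is a doubling. A peak is called where the FDR in the authors' deposited table is under 0.05. The tables used here give group values, so the spread between mice enters only through the deposited p-values, and library depth is unknown. At the targeted gene, the peak in Arid1a exon 9 stood at 4.04 in islets labelled βKO and 0.40 in islets labelled control after PPx, and at 5.49 in βKO and 1.21 in control islets before PPx. That is the opposite of the loss of signal that a deletion under the peak would give, which part of Arid1a the floxed alleles span is not given in the sources used here, and the deletion was not verified. All directions below are therefore those between the groups as labelled. Among marker genes of other cell types, 2 of 20 acinar genes had any peak after PPx in the genotype comparison (3.15 to 3.79 in βKO, 2.63 to 3.06 in control) and 0 of 20 had one in that of the islets before PPx. In βKO over time 1 acinar gene had a peak (2.63 before PPx), and in control over time 0 had one. The genotype comparison before PPx listed fewer peaks of all kinds, so these counts are not on a like footing. Duct markers had peaks at 4 of 14 genes in the genotype comparison after PPx and at 0 in that before PPx, but at 4 in βKO over time (1.91 to 3.41 before PPx) and at 3 in control over time (3.20 to 3.68 before PPx). In the genotype comparisons, peaks stood at 6 of 14 endothelial genes after PPx and 3 before, at 4 of 14 stromal genes after and 2 before, and at 3 of 14 macrophage and leukocyte genes after and 1 before. Of these markers, called ones in the authors' deposited table were a distal peak of Ambp, a duct list gene (4.34 in βKO and 3.15 in control islets after PPx, FDR 0.0364), and in βKO islets a distal peak of Csf1r, the macrophage growth factor receptor (4.03 after and 2.02 before PPx, FDR 0.0282), and the core peak of Epcam, an epithelial adhesion gene (3.79 after and 1.91 before PPx, FDR 0.0421). In βKO against control after PPx, peaks were also called higher at 4 of the 21 β cell identity genes with any peak. The same held for 2 of the 7 such α, δ and PP cell genes. In βKO over time these counts were 2 of 21 and 0 of 7. Over all peaks, 9.88% and 7.44% were called higher in these 2 comparisons. These are shares of peaks, while the counts of islet genes are of genes with at least 1 call. The β cell genes had 33 peaks in each comparison, and the α, δ and PP cell genes had 11 and 10. A gene with several peaks has more chances of a call, so the counts and the shares are not on a like footing. The part of any of these cell types in the results was not tested.

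After PPx, most flanking peaks were at a higher level in islets labelled βKO than in control islets. The median flanking peak was at 3.83 in βKO and 3.45 in control islets, and the median change was 0.47 (quartiles 0.22 and 0.76), a 1.39-fold higher level. Of the 400 flanking peaks, 347 (86.8%) were higher in βKO. The authors' deposited table called 17 of them (4.25%) higher and 0 lower, where 9.97% of all peaks were called, 9.88% higher and 0.0839% lower. Over all peaks the median change was 0.61 and 90.3% were higher, so most flanking peaks moved with the whole table, and by less than its median.

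Set against peaks of other classes, the flanking peaks had a smaller median change than core promoters and one near that of distal peaks. Core promoter peaks had a median change of 0.72, with 97.5% higher and 14.9% called, while distal intergenic peaks had 0.39, with 80.6% higher and 3.47% called. Core peaks were also stronger, with medians of 4.41 in βKO and 3.73 in control islets. When core peaks were reweighted to the flanking peaks' spread over 10 bins of concentration, their median change was 0.66 with 96.1% higher and 9.38% called. The flanking median, computed over the same bins, was 0.46, or 0.20 below core peaks of like strength (a difference of -0.20). Distal peaks reweighted in that way had a median of 0.39 with 81.4% higher and 4.62% called, and the flanking median was 0.06 above it. These are descriptions over peaks, which are not replicates of a condition, so no test was made.

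**Figure D1:**
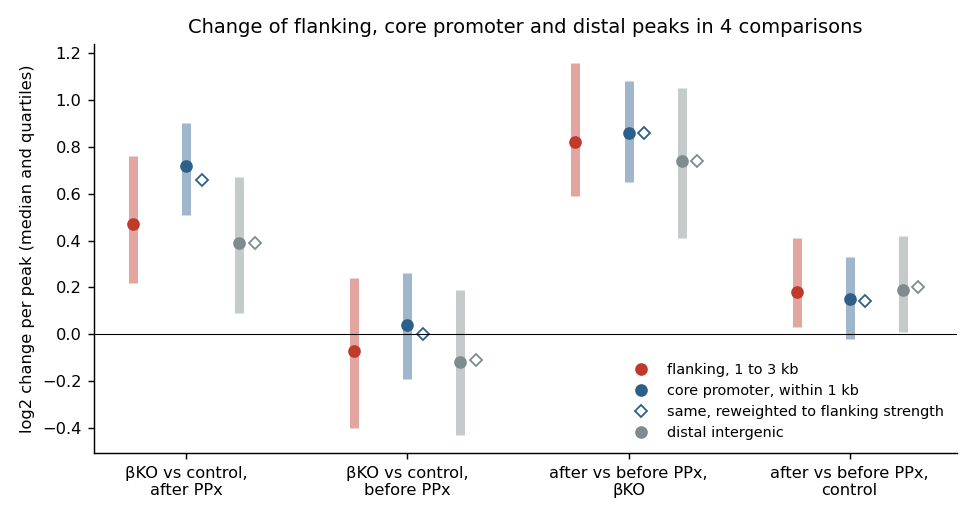
Median log2 change (points) with quartiles (bars) of flanking, core promoter and distal intergenic peaks in the 4 comparisons. Open diamonds give the core and distal medians reweighted to the strength of the flanking peaks; after PPx the flanking median of 0.47 lies between those of core (0.72) and distal peaks (0.39).

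The gap to core promoters was present in every bin of strength, while the distance to distal peaks varied. In the weakest bin the medians were 0.44 for flanking, 0.54 for core and 0.26 for distal peaks. In the strongest bin they were 0.61 for flanking, 0.79 for core and 0.60 for distal peaks. Peaks at 1-2 kb (206 peaks, median change 0.49, 9 called) and at 2-3 kb (194 peaks, 0.45, 8 called) had medians that differed by less than the 0.1 used as a tolerance for medians.

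**Figure D2:**
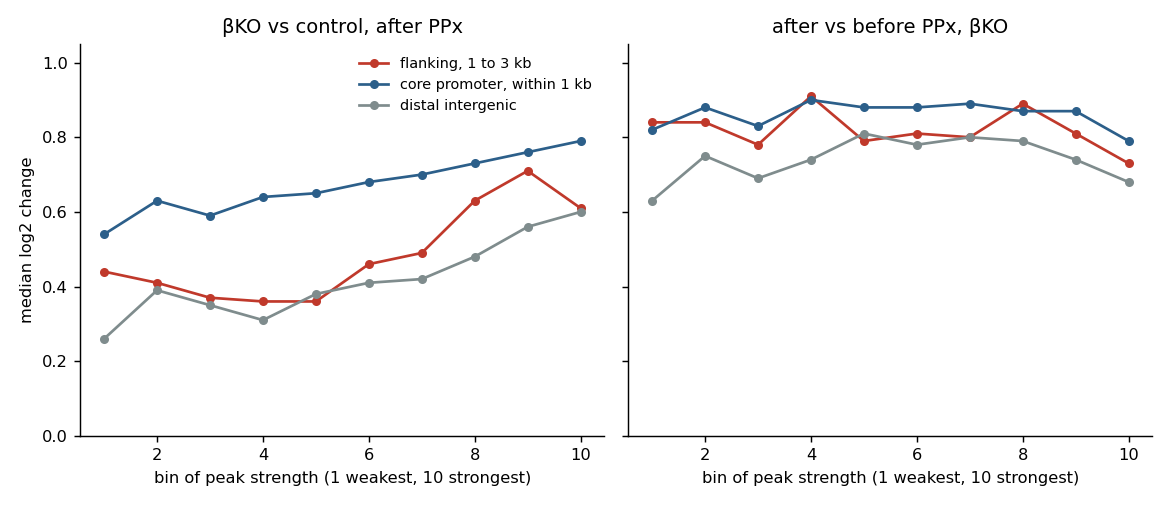
Median log2 change of flanking, core promoter and distal intergenic peaks in 10 bins of equal number by mean log2 concentration, from the weakest (1) to the strongest (10). In βKO against control after PPx (left) the flanking line runs below the core line in all 10 bins; in βKO after against before PPx (right) the 3 lines lie closer.

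The tables also count the libraries that called each peak, and after PPx these were more often βKO libraries. Of the 400, 351 were called as peaks in at least 2 βKO libraries and 133 in at least 2 control libraries (87.8% and 33.2%). Over all 13111 peaks these counts were 12043 and 5775 (91.9% and 44%), so the same lean held for the whole table. The 232 called in at least 2 libraries of βKO only lean that way by this choice, and their median change was 0.55. The 119 called in at least 2 libraries of both groups had a median change of 0.53, with 104 higher and 9 of the 17 calls. The 14 called in at least 2 libraries of control only had a median change of -0.55, with 3 higher. The authors' FDR was 1 at 157 flanking peaks, whose median concentration of 3.14 was below the 4.02 of the other 243.

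The 17 called peaks, 1 of them at a predicted gene, had changes from 0.91 to 1.79 and stood near genes of varied function. The steepest was at Ppm1l (ENSMUSG00000027784), which encodes a membrane-bound protein phosphatase, at chr3:69544944-69545544 in the 2-3 kb class. Its level was 4.53 in βKO and 2.74 in control islets, a change of 1.79 with FDR 0.0154 in the authors' deposited table. It was called as a peak in 3 βKO libraries and 0 control libraries. In all, 6 of the 17 were called as peaks in 0 control libraries, with control levels from 2.74 (Ppm1l) to 3.53 (Tchh).

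Further called peaks are given one by one, since no list or test groups them. At the peak named for Sec14l2, a SEC14-family lipid-binding protein whose RefSeq start lies 21948 bp away (that of Mtfp1 lies 1350 bp away), the level was 4.42 in βKO and 3.04 in control islets (change 1.39, FDR 0.0268 in the authors' deposited table). At Fabp5, a fatty acid-binding protein, it was 4.21 in βKO and 2.99 in control islets (change 1.22, FDR 0.0351 in the authors' deposited table). Hadh encodes a mitochondrial 3-hydroxyacyl-CoA dehydrogenase of fatty acid oxidation, whose loss in people causes excess insulin secretion. Its flanking peak (chosen after seeing its values) read 5.68 in βKO and 4.67 in control islets, a change of 1.01 with FDR 0.0449 in the authors' deposited table. With Benjamini-Hochberg adjustment over all listed peaks, its adjusted value was 0.0627 and the call was lost.

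The peak at Cpeb4, which binds polyadenylation elements in mRNAs and controls their translation, covers the start shown above at chr11:31870460-31871060. It read 5.44 in βKO and 4.32 in control islets, a change of 1.12 with FDR 0.0265 in the authors' deposited table. Prpf4b, a kinase of pre-mRNA splicing, read 5.08 in βKO and 3.99 in control islets (change 1.09, FDR 0.032 in the authors' deposited table; chosen after its values were seen). The peak named for Prr14, which tethers heterochromatin to the nuclear lamina, lies 6323 bp from its RefSeq start and 1021 bp from that of Fbrs. It read 5.18 in βKO and 4.15 in control islets (change 1.03, FDR 0.0396 in the authors' deposited table, 0.0548 when adjusted over all listed peaks; chosen after its values were seen). Zfp995, a zinc-finger gene whose RefSeq start lies 230 bp from the peak's centre, read 5.43 in βKO and 4.24 in control islets, with FDR 0.0279 in the authors' deposited table.

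Further calls were at Mir5112, Rnase4, Tchh, Mos, Smim15 and Fpr3. Rnase4, a secreted ribonuclease that shares its locus with Ang, read 5.86 in βKO and 4.57 in control islets (change 1.29, FDR 0.0265 in the authors' deposited table). Mos, a kinase of the MAPK pathway best known in oocytes, read 5.89 in βKO and 4.68 in control islets (change 1.21, FDR 0.0272 in the authors' deposited table). Smim15, a small membrane protein, read 5.45 in βKO and 4.30 in control islets (change 1.15, FDR 0.0265 in the authors' deposited table). The peak named for Fpr3, a formyl peptide receptor whose RefSeq start lies 60175 bp away, was the strongest of the calls, at 6.85 in βKO and 5.80 in control islets (FDR 0.0325 in the authors' deposited table). Mir5112, a microRNA gene, read 4.83 in βKO and 3.41 in control islets (change 1.42, FDR 0.0212 in the authors' deposited table). Tchh, a hair follicle protein gene, read 4.79 in βKO and 3.53 in control islets (change 1.26, FDR 0.0272 in the authors' deposited table). Rny3 is a small cytoplasmic RNA with many copies in the genome. The peak named for it is in the 2-3 kb class, and whether its own reads can be placed with certainty was not checked. It had a change of 2.03 (3.59 in βKO, 1.56 in control islets, p 0.000319) but FDR 1 in the authors' deposited table. With Benjamini-Hochberg adjustment over all listed peaks, it was among the calls gained.

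**Figure D3:**
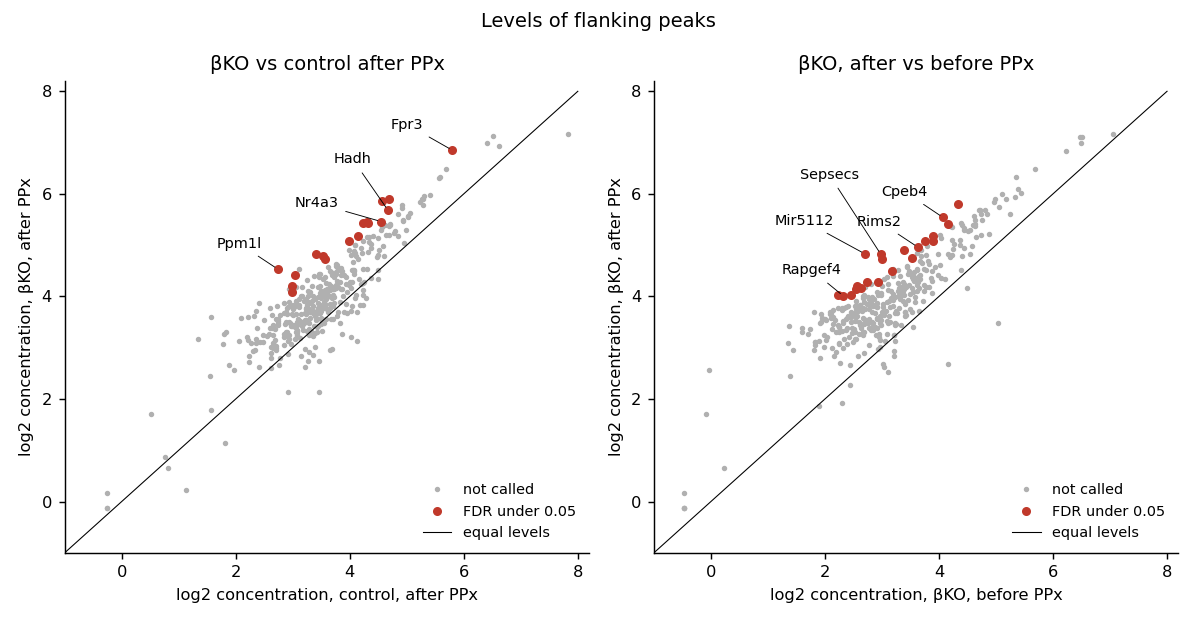
Each point is a flanking peak, with its log2 concentration in the first group on the vertical axis and in the second on the horizontal axis; red points are called at FDR under 0.05 and the line marks equal levels. All 17 (left) and 21 (right) called peaks lie above the line, with Ppm1l at 4.53 in βKO and 2.74 in control islets after PPx.

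At an unadjusted p under 0.05, 83 flanking peaks were higher and 3 lower in βKO after PPx, 21.5% of the 400 against 33.6% of all peaks (33% higher and 0.526% lower). Of the 3 lower ones, Il1f6, a cytokine gene of the interleukin-1 family, is the one outside the predicted genes and was named after seeing its values. It read 2.14 in βKO and 3.46 in control islets, with p 0.0321 and FDR 1 in the authors' deposited table.

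Few genes of the pathway lists used here have a flanking peak at all, and the immediate early genes were the most frequent among them. Of 29 genes of the immediate early and cAMP response list, which encode transcription factors switched on within minutes of a signal, 23 had a peak of any class and 8 had a flanking peak. These were Egr1, Egr3, Fos, Fosb, Jun, Junb, Klf10 and Nr4a3. Of the 232 other list genes with any peak, 13 had a flanking peak, and over all 10268 genes with a peak 438 (4.27%) had one. In βKO against control after PPx the list had 6 flanking peaks, all higher, with changes from 0.33 to 1.08. Only that of Nr4a3 was called. Their median change was 0.81, beside 0.61 over all peaks of the table, without matching for strength. In bins 9 and 10, the strongest, the medians were 0.71 and 0.61 for flanking peaks and 0.76 and 0.79 for core peaks.

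Nr4a3 encodes an orphan nuclear receptor induced by cAMP. Its peak at chr4:48042991-48043591, in the 1-2 kb class and 2014 bp from the RefSeq start, read 5.46 in βKO and 4.55 in control islets after PPx, a change of 0.91 with FDR 0.0392 in the authors' deposited table. The adjusted value over all listed peaks was 0.0544. Fos, a subunit of the AP-1 factor, read 5.40 in βKO and 4.61 in control islets (change 0.79, FDR 0.0824 in the authors' deposited table). Egr1, a zinc-finger factor of the same class of genes, read 5.16 in βKO and 4.31 in control islets (change 0.84, FDR 0.0834 in the authors' deposited table). Jun, the partner of Fos, stood at 6.94 in βKO and 6.61 in control islets with a change of 0.33. Before PPx the list had 4 flanking peaks, of which 1 was higher in βKO, with a median change of -0.09.

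Few genes that define the islet had a flanking peak, but few genes of any kind did (4.27% of those with a peak). None of the 38 genes of the β cell identity list had a flanking peak, and of the 14 α, δ and PP cell genes only Gcg, the glucagon gene, had one. In βKO against control after PPx, 21 and 7 genes of these lists had a peak of any class. At so few genes, a lack of flanking peaks cannot be told from the share over all genes. The Gcg peak read 3.70 in βKO and 3.80 in control islets after PPx, a change of -0.10 with FDR 0.834 in the authors' deposited table. Before PPx it read 3.66 in βKO and 3.60 in control islets. In the exocytosis list, Kcnq1, Rims2 and Unc13a had flanking peaks, all 3 higher in βKO after PPx with changes of 0.37 to 0.73 and none called. Sos1, an exchange factor that couples receptors of the EGF family to Ras, read 5.35 in βKO and 4.56 in control islets after PPx, with FDR 0.0772 in the authors' deposited table. Eif2ak3, the PERK kinase of the unfolded protein response, read 3.14 in βKO and 2.21 in control islets with FDR 1 in the authors' deposited table. No flanking peak was listed for the acinar, endothelial, macrophage and leukocyte, cell cycle, TGF-β, Wnt and disallowed gene lists.

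For 119 flanking peaks at 116 genes, the same gene also had a core promoter peak after PPx. Where a gene had several core peaks, the strongest was taken, so the pairs lean towards a weaker flanking peak. The pairs were not matched for strength. The flanking peak was the weaker of the pair at 96 of the 119. Its change was smaller than that of the core peak at 82 and larger at 35, with medians of 0.46 for flanking and 0.73 for core peaks and a median difference of -0.22. Core peaks were called at 20 of these pairs, flanking peaks at 3, among them Fabp5 and Ppm1l, and both at 1. Over all peaks of each class, 14.9% of core and 4.25% of flanking peaks were called. At Ppm1l the core peak changed by 1.09 (5.66 in βKO, 4.57 in control islets; FDR 0.0279 in the authors' deposited table) and the flanking peak by 1.79. At Fabp5 the core peak changed by 0.65 and was not called. The other 281 flanking peaks had no core peak of the same gene in the table.

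**Figure D4:**
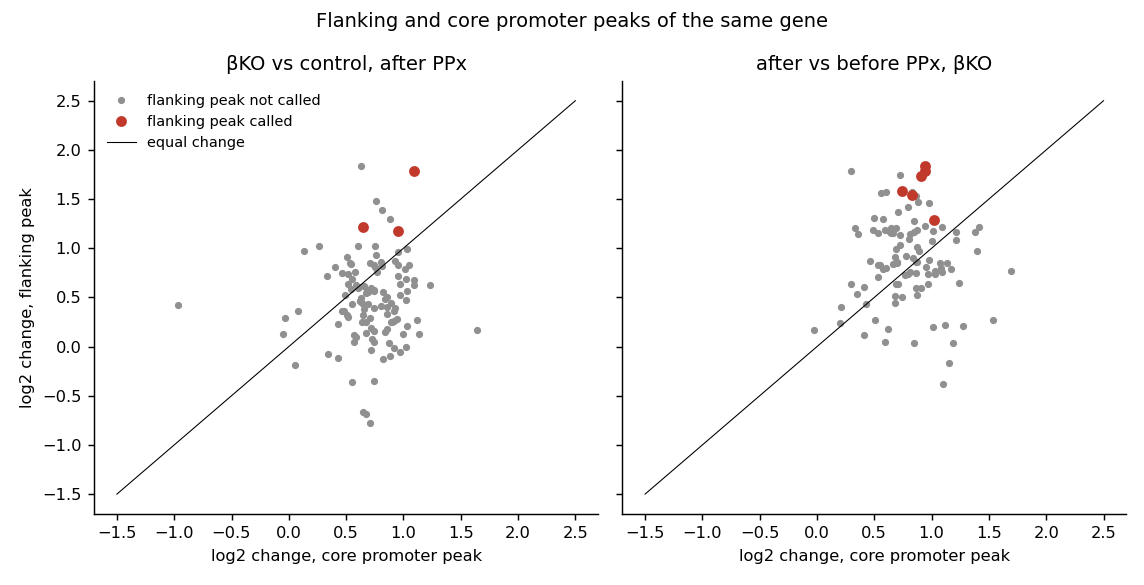
Log2 change of a flanking peak (vertical) against that of the strongest core promoter peak of the same gene (horizontal), with the line of equal change. Red points are called flanking peaks. In βKO against control after PPx (left) 82 of 119 points lie below the line, and in βKO after against before PPx (right) 60 of 105 lie above it.

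Before PPx, flanking peaks of islets labelled βKO and control did not differ at the threshold. Over 182 flanking peaks the medians were 3.84 in βKO and 4.06 in control islets, the median change was -0.07 and 43.4% were higher in βKO. None was called, where 0.0128% of all peaks, the Arid1a exon 9 peak alone, was. At an unadjusted p under 0.05, 2 flanking peaks were higher in βKO and 9 lower, 6.04% of 182 beside 3.14% of all peaks (0.843% higher and 2.3% lower). Core peaks had a median change of 0.04 and distal peaks of -0.12. Reweighted to flanking strength, these were 0.00 for core and -0.11 for distal peaks, beside -0.09 for flanking peaks. Here the bands differed by more than the tolerance, with a median of 0.00 at 1-2 kb (105 peaks) and -0.17 at 2-3 kb (77 peaks).

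Peaks with a small p before PPx included several that were weak in βKO islets. Sepsecs, the enzyme that makes selenocysteine on its tRNA, read 3.07 in βKO and 4.46 in control islets (p 0.00152, FDR 1 in the authors' deposited table). Its peak was called as a peak in 1 of 3 βKO libraries and 4 of 4 control libraries. Elovl5, a fatty acid elongase, read 2.33 in βKO and 3.84 in control islets (p 0.00537). Mysm1, a histone H2A deubiquitinase, read 3.98 in βKO and 4.85 in control islets (p 0.022). Reln, a secreted glycoprotein of neuronal migration, read 2.76 in βKO and 3.91 in control islets (p 0.0226). The RefSeq start of the named gene lay 6679 bp from the Elovl5 peak, 11665 bp from that of Mysm1 and 337331 bp from that of Reln. FDR was 1 at all 182 flanking peaks in the authors' deposited table.

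In islets labelled βKO, nearly all flanking peaks were at a higher level after PPx than before. The median level was 3.85 after and 3.04 before PPx, the median change over 377 peaks was 0.82 (quartiles 0.59 and 1.16) and 96.6% were higher. The authors' deposited table called 21 (5.57%) higher and 0 lower, where 7.44% of all peaks were called. Of the 377, 252 were called as peaks in at least 2 libraries after PPx only. They lean that way by this choice, with a median change of 0.92 and 14 of the 21 calls. The 97 called in at least 2 libraries of both groups had a median change of 0.74, with 94 higher and 7 calls. The 9 called in at least 2 libraries before PPx only had a median change of -0.14, with 3 higher. At an unadjusted p under 0.05, 131 were higher and 0 lower, 34.7% of the 377 beside 39.4% of all peaks. The median over all peaks was 0.83, over core peaks 0.86 and over distal peaks 0.74. At like strength the flanking median was 0.04 below core peaks and 0.09 above distal peaks. The classes thus lay closer together than in the genotype comparison after PPx; that difference between the comparisons was not tested, and both use the βKO libraries after PPx. The 1-2 kb peaks (191, median 0.81, 11 called) and the 2-3 kb peaks (186, 0.83, 10 called) had like medians.

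Among the 21 calls the changes ran from 1.18 to 2.12. Mir5112 was the steepest, at 4.83 after and 2.70 before PPx (FDR 0.0192 in the authors' deposited table). Sepsecs read 4.82 after and 2.98 before PPx, a change of 1.84 with FDR 0.023 in the authors' deposited table, at chr5:52663278-52663878. The peak named for Arfip1, a protein of secretory granule formation whose RefSeq start lies 104623 bp away, read 4.02 after and 2.23 before PPx (change 1.79, FDR 0.0349 in the authors' deposited table).

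The exocytosis list had 1 call in this comparison. This was Rims2, an active-zone protein that docks insulin granules, which read 4.96 after and 3.63 before PPx in βKO islets (change 1.33, FDR 0.0406 in the authors' deposited table). Rapgef4, the cAMP sensor EPAC2 that potentiates insulin secretion, read 4.01 after and 2.32 before PPx (change 1.69, FDR 0.041 in the authors' deposited table; chosen after its values were seen). Slc7a2, a transporter of arginine and lysine, read 4.20 after and 2.57 before PPx (change 1.63, FDR 0.041 in the authors' deposited table). Fnip2, a folliculin partner in nutrient sensing, read 4.91 after and 3.38 before PPx (change 1.53, FDR 0.0282 in the authors' deposited table). Sos1 was just outside the threshold, at 5.36 after and 4.22 before PPx with FDR 0.0507 in the authors' deposited table.

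Ccnh, the cyclin of the kinase that activates CDKs and of TFIIH, read 4.03 after and 2.45 before PPx (change 1.58, FDR 0.0404 in the authors' deposited table). Cpeb4 read 5.54 after and 4.07 before PPx (change 1.47, FDR 0.0282 in the authors' deposited table). Mysm1 read 5.08 after and 3.76 before PPx (change 1.32, FDR 0.0353 in the authors' deposited table; chosen after its values were seen). Rnase4 read 5.81 after and 4.33 before PPx (change 1.47, FDR 0.0404 in the authors' deposited table). Of the 21, 6 were lost when p-values were adjusted over all listed peaks, namely Chic1 (0.0557), Pcmtd1 (0.051), Ttc17 (0.0549), Tuft1 (0.0575), Zfp995 (0.0556) and Zp2 (0.0549); Ttc17, Tuft1, Zfp995 and Zp2 were named here after seeing their values.

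At 105 flanking peaks the same gene had a core peak, of which the strongest was again taken. The βKO change after PPx was larger at the flanking peak in 60 and smaller in 43. The medians were 0.86 for flanking and 0.81 for core peaks. Called flanking peaks numbered 6, called core peaks 5, and no gene had both. Over all peaks of each class, 5.57% of flanking and 9.93% of core peaks were called in this comparison. With so few calls, the lack of a gene with both says nothing about the pairs. At Sepsecs the core peak changed by 0.94 and was not called, beside 1.84 at the flanking peak. The immediate early list had 7 flanking peaks in this comparison, all 7 higher with a median of 0.77 beside 0.83 for the table, and none called.

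In control islets, no flanking peak passed the threshold between the times, and the median change was small. Over 202 flanking peaks the medians were 4.01 after and 3.79 before PPx, the median change was 0.18 and 79.2% were higher after PPx. None was called, as for all peaks (0%) in the authors' deposited table, and at an unadjusted p under 0.05 there were 11 flanking peaks (5.45%), all higher, beside 2.53% of all peaks (2.43% higher and 0.0991% lower). The medians of core and distal peaks were 0.15 and 0.19. The smallest p were at Kat2b, a histone acetyltransferase, at 4.12 after and 2.96 before PPx (p 0.00892), and at Pcmtd1, a relative of the isoaspartyl methyltransferases, at 3.89 after and 2.82 before PPx (p 0.0136). Ccnt2, a cyclin of transcription elongation, read 4.28 after and 3.34 before PPx (p 0.0192). Vav1, an exchange factor of blood cells, read 3.56 after and 2.41 before PPx (p 0.0218). Kctd8, an auxiliary subunit of GABA receptors, read 4.94 after and 4.29 before PPx (p 0.0376). FDR was 0.999 for these in the authors' deposited table. At Nr4a3 the level was 4.39 after and 4.91 before PPx (p 0.0746).

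The same regions can be set side by side over the groups, with the limit that each table was normalized on its own. Between tables, a group's level at shared flanking peaks differed by a median of 0.00 for βKO after PPx, -0.05 for control after PPx, 0.23 for βKO before PPx and 0.18 for control before PPx. For the 129 regions listed as flanking in all 4 tables, the median change was 0.56 in βKO against control after PPx (112 higher), -0.09 before PPx (55 higher), 0.77 in βKO over time (125 higher) and 0.13 in control over time (99 higher). After PPx, 10 of these 129 (7.75%) were called in βKO against control, beside 9.97% of all peaks, and 13 (10.1%) in βKO over time, beside 7.44% of all peaks; the other comparisons called none of them.

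Of the 31 flanking regions with a call, 7 were called both against control after PPx and against βKO before PPx. These 2 comparisons have the βKO libraries after PPx in common. The share called in both was not computed over all peaks, so the 7 are not read as a set apart. Among them are Cpeb4, Mir5112, Prr14, Rnase4 and Zfp995. Cpeb4 read 5.44 in βKO and 4.32 in control islets after PPx, and 4.28 in βKO and 4.87 in control islets before PPx. There the order of the genotypes differed between the times, which was not tested as an interaction. Rnase4, by contrast, read 4.56 in βKO and 4.62 in control islets before PPx, close to each other.

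**Figure D5:**
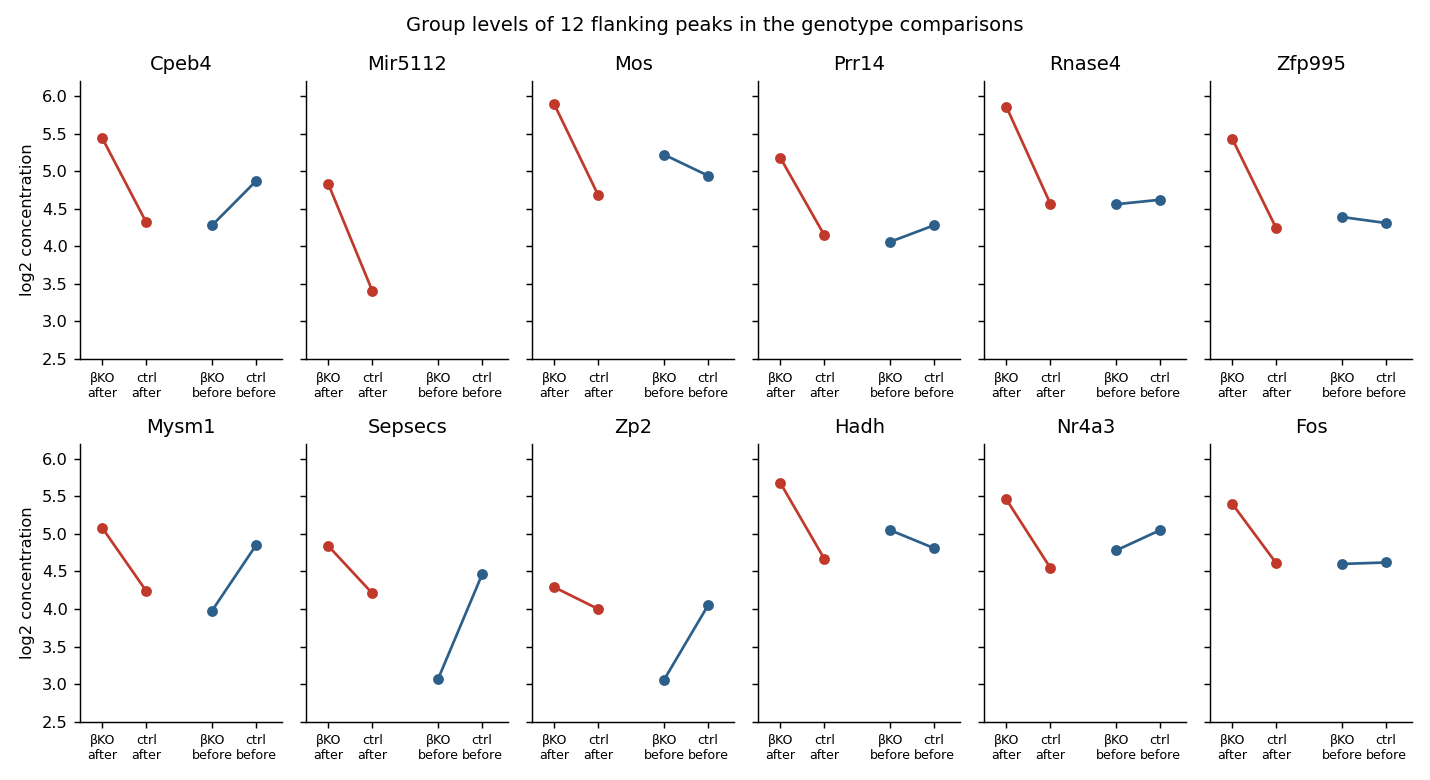
Authors' log2 concentration of 12 flanking peaks, joined within the genotype comparison after PPx (red) and within that before PPx (blue), βKO on the left of each pair; Mir5112 was not listed before PPx. Cpeb4, Mysm1, Sepsecs and Zp2 have the higher level in βKO after PPx and the lower in βKO before PPx, as do, with smaller differences before PPx, Fos, Nr4a3, Prr14 and Rnase4.

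The 9 flanking peaks with the lower level in βKO before PPx at an unadjusted p under 0.05 were followed in the other comparisons. Of these, 7 were listed in βKO after against before PPx, where all 7 were higher after PPx, 4 were called and the median change was 1.32; this comparison shares the βKO libraries before PPx with the one that chose them. In the genotype comparison after PPx, which shares none, 7 were listed, 5 were higher in βKO, 1 was called and the median change was 0.29. Sepsecs read 4.84 in βKO and 4.21 in control islets there, and Zp2, a coat protein gene of the egg, read 4.29 in βKO and 4.00 in control islets.

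The flanking peaks that were most open in resting control islets were led by Aida, an axin-binding protein. It read 7.29 in βKO and 7.82 in control islets before PPx, and 7.17 in βKO and 7.83 in control islets after PPx (p 0.051 in the authors' deposited table). Before PPx, Clec11a, a secreted growth factor gene, read 6.72 in βKO and 6.70 in control islets. Pisd-ps1, a pseudogene whose near-identical copies leave its reads uncertain, read 6.75 in βKO and 6.56 in control islets. Fpr3 followed with 6.42 in βKO and 6.08 in control islets, and Slc27a1, a fatty acid transporter, with 5.68 in βKO and 5.55 in control islets. Ankrd44 read 5.58 in βKO and 5.50 in control islets, Vsig10l 4.98 in βKO and 5.33 in control islets, and Peg3, an imprinted zinc-finger gene, 5.63 in βKO and 5.31 in control islets. None of these differences passed the threshold. Control levels of the flanking peaks before PPx ran from 0.45 to 7.82.

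Flanking peaks lay at varied distances from the RefSeq starts used here, which do not cover every gene. At Ppm1l, Fabp5, Mos and Sepsecs, for example, the named gene had no such start. A peak without a near start may thus lie at a gene missing there. On the chromosomes of the RefSeq table, 387 of the 400 flanking peaks listed after PPx were placed. Of these, 30 (7.75%) lay within 1000 bp of any RefSeq start, against 79.8% of core peaks. Both classes are defined by distance to a start, so much of this contrast is by construction. The 30 had a median change of 0.66 with 3 called (Cpeb4, Smim15 and Zfp995), and the 357 without such a start had 0.44 with 13 called. The annotated gene had a RefSeq start within 3500 bp at 128 flanking peaks. Those upstream of it (54, median 0.58, 5 called) and those downstream (74, median 0.53, 4 called) had like medians. Among peaks named in other comparisons, the RefSeq start of the named gene lay 12407 bp off at Fnip2 and 12488 bp at Kat2b. It lay 45844 bp off at Ttc17 and 110836 bp at Ankrd44. In 29 regions the class differed between tables, 23 of them core in another table, and 8 fell in both bands. Prpf4b and Sec14l2, called as flanking in βKO against control after PPx, were listed as core in that comparison before PPx. The regions of Jun and Kctd8 were also listed as core in some comparisons.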

How the data were processed

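Chromatin accessibility of islets was measured by ATAC-seq with 75 bp single-end reads from 40000 islet cells per library, transposed at 37 °C for 30 min, per the labels' protocols. Per the submitters' processing notes, the tools were BWA, cutadapt, MACS, ChIPseeker and DiffBind, with mm10 (GRCm38); for versions, settings and a Tn5 shift, the sources used here give nothing. Per the file headers, the authors deposited 4 tables, with peaks of 601 bp, log2 concentrations per group, a log2 fold, a p-value, an FDR and the number of libraries that called the peak. These library counts were matched to groups by the order of the group columns. The deposited fold is control minus βKO or before minus after PPx, so its sign was turned.

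Rows that repeat a position were counted once and 1 empty row was dropped. Regions sharing 1 bp were 1 region across tables. Peaks were described by counts and medians, with core and distal peaks reweighted over 10 bins of concentration, in Python 3.11.15 with pandas 2.3.3 and numpy 2.4.6; these steps were tested on simulated data. Calls are the authors' p-values with their FDR under 0.05, and Benjamini-Hochberg adjustment over all listed peaks was the alternative. Replicates are separate mice, per the labels. Starts and windows are those of RefSeq on GRCm38.p6. The sequences of the peaks themselves were not analysed here.

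The members and the gene lists were chosen with earlier results of these data known. Genes are named where called with a concentration of at least the median and among the 10 largest changes, where called and on a list, where among the 6 smallest p of a comparison, where among the 8 highest levels of resting control islets, or where on the β cell or the α, δ and PP cell list. No gene had calls in both bands or lower calls, which the rule also names. Genes of the other lists are given as list members. Other names are marked as chosen after their values were seen, predicted genes are not named, and some results are not reported here.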

Additional observations from a re-analysis of the deposited data

How the results depend on the processing

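With an FDR under 0.01, 0 flanking peaks were called in βKO against control after PPx and 0 in βKO after against before PPx. With an FDR under 0.1 the counts were 62 and 93. Adjustment over all listed peaks called 15 flanking peaks in βKO against control after PPx, 13 of them among the 17 calls and the rest gained. Over time in βKO it kept 15 of the 21 calls and gained none. The median change before PPx, -0.07 over both bands, was -0.17 in the 2-3 kb band alone, where by construction it uses the 77 peaks of that band. The other 82 alternatives of the medians, class differences, counts and shares moved by less than 0.1 on the log2 scale or less than 1.5 times, and no direction of a called value turned. In the alternatives the flanking minus core difference after PPx ran from -0.25 to -0.19, beside -0.20 in the main setting. The flanking minus distal one ran from 0.07 to 0.11, beside 0.06 in the main setting. For peaks shared between tables, asking for 50% overlap gave 352, 150 and 166. The shares higher were recomputed at a concentration of at least 3 and without predicted genes, alternatives chosen after seeing the data, and lay at 86.7% to 87.3% after PPx. No paired analysis was possible because the labels number the samples without repeats across groups and the tables hold no values per library. For the same reason no library could be left out, depth is unknown, and weak peaks limit what can be called.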
